A study of Mus musculus with 9 samples.

Results

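The 43 genes described here carry glucose into the cell, break it down to pyruvate and lactate, admit pyruvate to the mitochondrion, store glucose as glycogen, or divert it into the pentose phosphate pathway. They were chosen by name, as a list of mouse gene symbols, and all 43 were found among the 53465 gene IDs counted in each of 9 RNA-sequencing libraries from mouse hearts. All animals were NOD-SCID, an immunodeficient strain that accepts foreign cells. The groups, with 3 libraries each, were hearts with sham surgery, hearts with coronary artery ligation, which starves part of the ventricle wall of blood, and hearts with coronary artery ligation that were then transplanted with FOXO3-GE-MPCs. They are called sham, ligation and cells below. No group received other cells or an implantation without cells. The procedure, cells of any kind and what FOXO3 in the name stands for can therefore not be told apart in the cells group. Per the labels, the tissue came from the infarct border zone in every group, sham hearts included, although these have no infarct. The labels give no age, no sex, no time after surgery, no number of implanted cells and no explanation of the name FOXO3-GE-MPCs. They do not say that replicates are separate animals, so p-values measure the spread between libraries, which may be technical.

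The heart normally draws most of its energy from fatty acids and burns glucose and lactate beside them. Glucose enters through transporters, is trapped by hexokinase, and is committed to glycolysis by phosphofructokinase. Pyruvate then becomes lactate or enters the mitochondrion, where the pyruvate dehydrogenase complex converts it to acetyl-CoA, a step that the pyruvate dehydrogenase kinases switch off. Many of these steps have a gene that predominates in striated muscle and another that is used by nearly all cells, and oxygen shortage raises transcription of several of them through hypoxia-inducible factors.

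Libraries held 4549268 to 7515052 gene counts, and 3 counts, taken as the smallest detectable level, came to 0.375 to 0.639 CPM. CPM here are counts scaled to a common library size, with TMM factors applied. Mitochondrially encoded genes took 19.1% to 19.9% of gene counts in sham, 12.6% to 13.9% in ligation and 14.3% in each library with cells. TMM factors computed without these genes gave 28, 11 and 32 members past the threshold in the 3 comparisons below, against 27, 11 and 33. The names in the file headers share a stem between sham replicates 1 and 2 and between ligation replicates 2 and 3, and members whose calls change when such libraries are summed are named below. Summed cardiomyocyte markers, 10 genes of contraction and calcium handling, were at 55362 to 56984 CPM in sham, 41218 to 43170 CPM in ligation and 40576 to 41499 CPM with cells, so the label heart holds in all 9 libraries.

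After ligation, 27 of the 42 members that could be tested differed from sham at an adjusted p-value under 0.05, 12 higher and 15 lower. Those higher were led by Slc16a3, which exports lactate, by the pyruvate dehydrogenase kinase Pdk1 and by the dehydrogenase subunit Pdha1. Those lower were led by Gapdh, whose reads are shared with copies described below, by the glycogen phosphorylase Pygb and by the regulator Pfkfb2. With cells, 11 of 42 differed from ligation: Pdk4, Slc16a1 and Pdha1 were higher, and 8 genes of glycolysis and lactate production were lower. Against sham, the hearts with cells differed in 33 of 42 members, 14 higher and 19 lower. In all, 36 of 42 members (85.7%) were past the threshold in at least 1 comparison, as were 50.5% of all genes tested, and 6 in none.

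These counts stood against a high background. Among all 13825 genes tested, 38.2% differed between ligation and sham (20.1% higher, 18.0% lower), and 64.3% of the members did. Between cells and ligation, 9.87% of all genes differed (4.19% higher, 5.69% lower), and 26.2% of the members did. Between cells and sham, 40.9% of all genes differed (21.0% higher, 20.0% lower), and 78.6% of the members did. Their median log2 fold change was -0.021 after ligation (0.0080 over all genes), -0.070 with cells against ligation (0.0020 over all genes) and -0.11 with cells against sham (-0.0073 over all genes). Differences were modest, since only Gapdh exceeded 2-fold among the members past the threshold after ligation or in cells against sham, and none did in cells against ligation. Library totals without TMM factors moved the median gene by 0.19 in ligation against sham and by 0.16 in cells against sham, and then gave 20 members higher and 12 lower, and 18 higher and 13 lower. Under that scaling Hk2, Pfkm, Pkm, Ldha, Pdk4, Ugp2, Phka1 and G6pdx were also higher after ligation (adjusted p 6.68e-06 to 0.0306), and Slc2a1, Pfkm, Tpi1 and Pdp1 were also higher in cells against sham (adjusted p 7.52e-05 to 0.0371). Eno3, Gys1 and Phka1 were also lower in cells against ligation (adjusted p 0.0285 to 0.0484). Fold changes below are those of the TMM scaling.

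**Figure D1:**
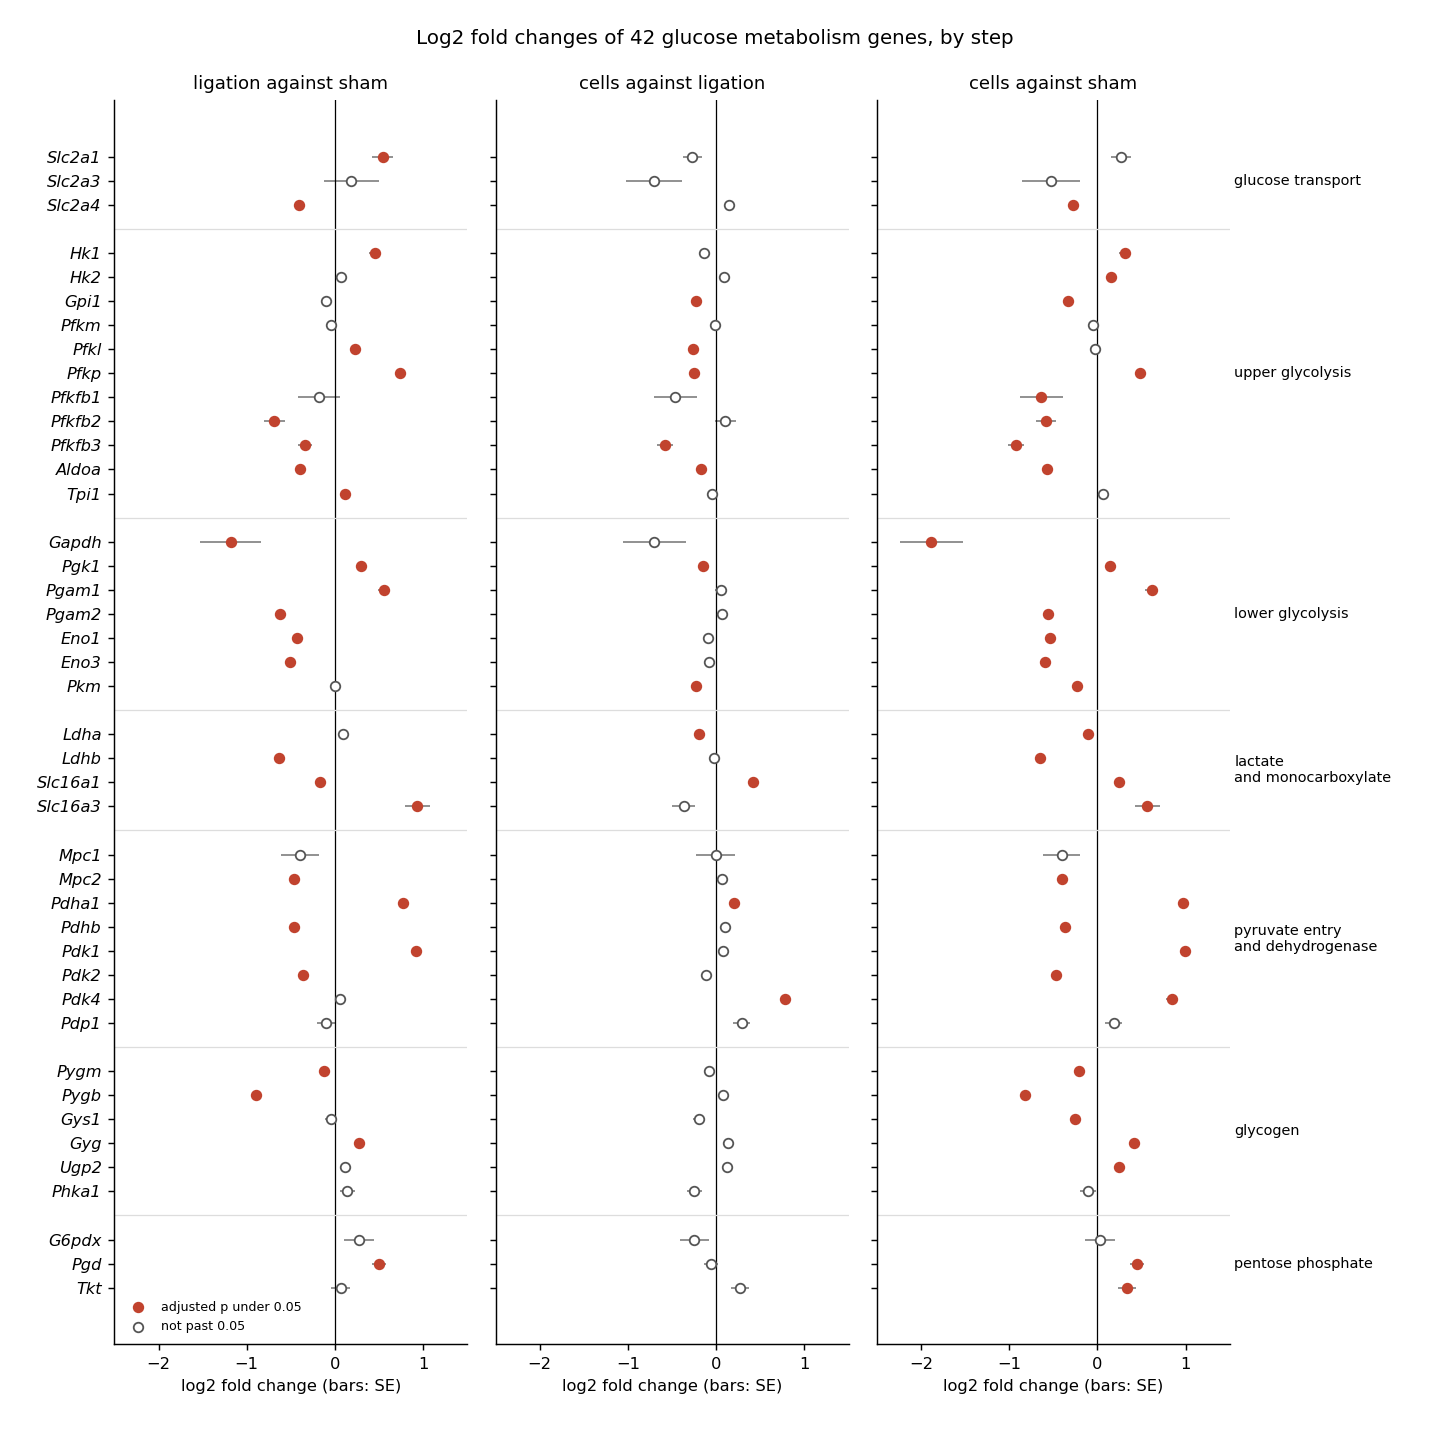
Log2 fold changes of the 42 tested members in the 3 comparisons, grouped by step, with the gene on the vertical axis. Points are fold changes of the edgeR fit, bars are standard errors (hidden where smaller than the point), and filled points are past an adjusted p of 0.05. After ligation filled points lie on both sides of 0 in most steps, with cells against ligation most filled points lie below 0, and Pdk4 at 0.78 is the farthest filled point above it.

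Other cell types changed with the groups. After ligation, 8 of 10 cardiomyocyte markers were lower and 1 was higher, while 5 of 7 fibroblast markers were higher and 1, Pdgfra, was lower. The summed fibroblast level went from 2208 to 2274 CPM in sham to 3853 to 3960 CPM in ligation. All 7 macrophage markers were higher after ligation and lower with cells than in ligation, with sums of 587 to 641 CPM in sham, 1113 to 1131 CPM in ligation and 452 to 464 CPM with cells. Endothelial sums were 1868 to 1973 CPM, 1242 to 1310 CPM and 1369 to 1409 CPM, with 6 of 6 markers lower after ligation. Smooth muscle and pericyte sums were 1571 to 1622 CPM, 1118 to 1145 CPM and 1126 to 1158 CPM, with 4 of 5 tested markers lower after ligation. Erythroid sums were 871 to 919 CPM, 1496 to 1595 CPM and 663 to 679.6 CPM, with 4 of 5 markers higher after ligation and 1 lower. Neutrophil sums were 37.9 to 45.2 CPM, 14.3 to 21.0 CPM and 5.76 to 6.80 CPM, with 2 of 4 tested markers lower after ligation. Mesothelial sums were 19.7 to 24.7 CPM, 195 to 225 CPM and 143 to 151 CPM, and adipocyte sums 9.72 to 11.7 CPM, 178 to 191 CPM and 168 to 196 CPM, with 4 of 4 markers higher after ligation in each list. Fast skeletal muscle sums were 69.2 to 75.1 CPM, 145 to 162 CPM and 160 to 173 CPM, mostly from Myl1, the 1 tested marker of that list that was higher with cells than in ligation, while 3 of 5 tested, Pvalb, Tnnt3 and Tnni2, were lower. After ligation 3 of the 5, Pvalb, Tnnt3 and Myl1, were higher. Tnnc2 of that list was at 0 in all 9 libraries. No defining marker of the other lists was at 0 in all libraries. Fewer cells of a type and less RNA per cell cannot be told apart in tissue RNA, and the part of these shifts in the results on glucose genes was not tested. Reads from the implanted cells were not analysed separately here.

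The members spanned a wide range of levels. Per kilobase of transcript, Aldoa led in sham at 1887 CPM per kb, followed by Ldhb at 1276, Pgam2 at 1145 and Eno3 at 1094 CPM per kb, all of them the muscle or heart form of their enzyme. In sham, 17 members were at 100 CPM per kb or more and 10 were under 10 CPM per kb. Aldoc, the aldolase of brain, was the member that did not pass the filter on low counts, with 0, 0 and 0.317 CPM in sham, 1.49, 0.434 and 1.25 CPM in ligation and 0.284, 0.416 and 0.576 CPM with cells. Every one of these values rests on at most 10 counts.

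Of the 3 glucose transporters, 1 rose and 1 fell after ligation, against 20.1% and 18.0% of all genes. In cells against ligation 0 were past the threshold by edgeR, DESeq2 or limma-voom, against 9.87% of all genes by edgeR. An unadjusted edgeR p under 0.05 was found there for 3 of 3, against 22.8% of all genes tested. Slc2a4 encodes GLUT4, the transporter that insulin and contraction bring to the muscle cell surface, and was at 365, 379 and 353 CPM in sham, 267, 293 and 265 CPM in ligation and 307, 301 and 301 CPM with cells, values listed here and below in the order of replicates 1 to 3. All ligation libraries lay below all sham libraries, and the cells libraries lay between them. It fell after ligation (log2 fold change -0.41 ± 0.051, adjusted p 1.41e-06; values after ± are standard errors) and was still lower than sham with cells (log2 fold change -0.27 ± 0.050, adjusted p 0.000189), a call lost with library totals alone (adjusted p 0.0752). Slc2a1 encodes GLUT1, which serves basal uptake in most cells, and was at 21.9, 22.1 and 22.4 CPM in sham, 29.6, 33.7 and 32.6 CPM in ligation and 22.4, 30.9 and 26.5 CPM with cells. It rose after ligation (log2 fold change 0.54 ± 0.11, adjusted p 0.000806). With cells, replicate 1 was at the sham level and replicate 2 within the ligation range. Cells against ligation gave log2 fold change -0.27 ± 0.11, adjusted p 0.135, and without cells replicate 2 the adjusted p was 0.0364. Cells against sham gave log2 fold change 0.27 ± 0.12, adjusted p 0.0717, and the adjusted p was 0.0132 without cells replicate 1 and 0.00521 with library totals alone (log2 fold change 0.43). For Slc2a4 in cells against ligation (log2 fold change 0.14 ± 0.051, adjusted p 0.0862), leaving out ligation replicate 2 gave 0.0452. Slc2a3 encodes GLUT3, a high-affinity transporter of neurons and blood cells, and was at 3.20, 3.79 and 3.02 CPM in sham, 2.77, 4.92 and 3.50 CPM in ligation and 1.70, 2.22 and 3.03 CPM with cells, with overlapping groups and no call.

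At the first step of glycolysis the ubiquitous hexokinase rose. Hk1, which is bound to mitochondria in most tissues, was at 235, 266 and 247 CPM in sham, 322, 328 and 369 CPM in ligation and 314, 295 and 316 CPM with cells. It rose after ligation (log2 fold change 0.45 ± 0.059, adjusted p 3.98e-06) and remained above sham with cells (log2 fold change 0.31 ± 0.059, adjusted p 0.000282), with no overlap between sham and either other group. Hk2, the insulin-responsive hexokinase of muscle, was at 207, 186 and 193 CPM in sham, 195, 211 and 208 CPM in ligation and 217, 214 and 220.2 CPM with cells, and ligation against sham gave a log2 fold change of 0.067 (adjusted p 0.359). Its higher level in cells against sham (log2 fold change 0.15 ± 0.054, adjusted p 0.0315) was lost, with adjusted p-values of 0.0558 to 0.125, without sham replicate 2 or 3, ligation replicate 3, or cells replicate 1 or 3. Summing libraries with a shared header stem gave 0.0558 and TMM factors without mitochondrially encoded genes gave 0.0519. Gpi1, which turns glucose phosphate into fructose phosphate, was at 641, 719 and 668 CPM in sham, 628, 639.9 and 629.8 CPM in ligation and 529, 538 and 549 CPM with cells. The cells libraries lay below all others, and Gpi1 fell against ligation (log2 fold change -0.23 ± 0.045, adjusted p 0.00158) and against sham (log2 fold change -0.33 ± 0.045, adjusted p 5.88e-06). Against sham the ligation libraries missed the threshold (log2 fold change -0.097 ± 0.045, adjusted p 0.0991), and passed it at 0.0372 without sham replicate 1 and at 0.0417 with TMM factors computed without mitochondrially encoded genes.

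The 3 phosphofructokinase genes, which catalyse the committed step, diverged. Pfkm, the muscle form, was at 738, 729 and 719.9 CPM in sham, 677, 733 and 716 CPM in ligation and 708, 704 and 702 CPM with cells, and was past the threshold in no comparison with TMM factors. With library totals alone its difference turned sign and passed, at 0.15 after ligation (adjusted p 0.00670) and 0.11 in cells against sham (adjusted p 0.0371). The liver form Pfkl was at 190.1, 206 and 181 CPM in sham, 222, 226 and 227 CPM in ligation and 191, 188 and 185 CPM with cells. It rose after ligation (log2 fold change 0.23 ± 0.054, adjusted p 0.00229) and fell with cells against ligation (log2 fold change -0.26 ± 0.054, adjusted p 0.00297), and in cells against sham its difference was -0.033 (adjusted p 0.663). The platelet form Pfkp was at 143, 162 and 150.3 CPM in sham, 261, 245 and 255 CPM in ligation and 210.3, 219.6 and 209 CPM with cells, with 3 separate ranges. It rose after ligation (log2 fold change 0.74 ± 0.056, adjusted p 1.32e-09), fell with cells against ligation (log2 fold change -0.25 ± 0.054, adjusted p 0.00429) and was higher with cells than in sham (log2 fold change 0.49 ± 0.056, adjusted p 5.43e-07).

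The Pfkfb genes encode bifunctional enzymes that make and remove the strongest allosteric activator of phosphofructokinase. Pfkfb3, the inducible form with the highest activity for making it, was at 45.6, 45.0 and 46.8 CPM in sham, 33.7, 38.1 and 36.4 CPM in ligation and 26.1, 23.3 and 23.0 CPM with cells. The ranges descended from sham to ligation to cells without overlap. Its level fell after ligation (log2 fold change -0.34 ± 0.084, adjusted p 0.00302), fell further with cells against ligation (log2 fold change -0.58 ± 0.089, adjusted p 0.000145), and the total difference from sham was -0.92 (adjusted p 3.72e-08). The first of these calls was lost with library totals alone (-0.15, adjusted p 0.167). Pfkfb2, the form named for heart, fell after ligation (log2 fold change -0.69 ± 0.12, adjusted p 9.56e-05) and was also below sham with cells (log2 fold change -0.58 ± 0.12, adjusted p 0.000395). Pfkfb1, at 4.02 to 7.74 CPM over all libraries, was called only in cells against sham (log2 fold change -0.64 ± 0.24, adjusted p 0.0424). That call was lost without sham replicate 2 or 3 or any 1 cells replicate (adjusted p-values 0.0631 to 0.167), and also with library totals alone (0.117), no filter on low counts (0.0538), DESeq2 (0.0819) and the replicate block (0.0593).

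Aldoa, the aldolase of muscle and the most abundant member per kilobase, was at 2893, 2861 and 2799 CPM in sham, 2201, 2181 and 2124 CPM in ligation and 1957, 1944 and 1854 CPM with cells. As with Pfkfb3, the 3 ranges descended without overlap. It fell after ligation (log2 fold change -0.39 ± 0.033, adjusted p 6.27e-09) and again with cells against ligation (log2 fold change -0.18 ± 0.033, adjusted p 0.00110). Tpi1, which interconverts the triose products of aldolase, was at 778 to 883 CPM over the 9 libraries. Its small rise after ligation (log2 fold change 0.11 ± 0.040, adjusted p 0.0325) was not past the threshold without sham replicate 1 or 3 or without any 1 ligation replicate (adjusted p-values 0.0532 to 0.114), in the fit of the 2 groups alone (0.098), or with header stems summed (0.0902).

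In lower glycolysis, 2 of 7 members were higher and 4 lower after ligation, against 20.1% and 18.0% of all genes. The 4 lower were Pgam2 and Eno3, the muscle forms of mutase and enolase, and Gapdh and Eno1, which were not past the threshold once the copies described below were added. Pgam2, the muscle phosphoglycerate mutase, was at 945, 983 and 957 CPM in sham, 599, 659.8 and 606 CPM in ligation and 661, 650.4 and 647 CPM with cells. Pgam1, its counterpart in other tissues, was at 61.8, 64.2 and 58.4 CPM in sham, 84.6, 93.6 and 92.5 CPM in ligation and 100.1, 90.0 and 91.9 CPM with cells. All sham libraries lay above all others for Pgam2 and below all others for Pgam1. Pgam2 fell (log2 fold change -0.63 ± 0.043, adjusted p 2.96e-10) and Pgam1 rose (log2 fold change 0.56 ± 0.070, adjusted p 1.93e-06) after ligation, and with cells against ligation neither was past the threshold (0.070 and 0.055, adjusted p 0.360 and 0.688). Eno3, the muscle enolase, was at 1702, 1744 and 1686 CPM in sham, 1208, 1235 and 1165 CPM in ligation and 1169.6, 1105 and 1122 CPM with cells. The level fell after ligation (log2 fold change -0.51 ± 0.037, adjusted p 8.22e-10) and was lower with cells than in sham (log2 fold change -0.60 ± 0.037, adjusted p 7.02e-11).

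Pgk1, the first enzyme of glycolysis to make ATP, was at 416, 412 and 407 CPM in sham, 533, 509 and 472 CPM in ligation and 454, 454 and 449.7 CPM with cells. It rose after ligation (log2 fold change 0.29 ± 0.047, adjusted p 4.47e-05), and the cells libraries lay between both other groups. It was lower with cells than in ligation (log2 fold change -0.15 ± 0.047, adjusted p 0.0395) and higher than in sham (log2 fold change 0.14 ± 0.047, adjusted p 0.0241). The first of these was lost without ligation replicate 1 or 2 or any 1 cells replicate (adjusted p-values 0.0808 to 0.146), and the second without sham replicate 2 or 3 or cells replicate 1 or 2 (0.0512 to 0.0692) and with header stems summed (0.0586). Pkm, pyruvate kinase of muscle and most other tissues, was at 1014, 1077 and 1028 CPM in sham, 1066, 1020.1 and 1032 CPM in ligation and 889, 909 and 862 CPM with cells. Sham and ligation overlapped almost entirely (-0.0010, adjusted p 0.988; with library totals alone 0.19, adjusted p 0.000473), and all cells libraries lay below both groups, so that Pkm fell against ligation (log2 fold change -0.23 ± 0.039, adjusted p 0.000477) and against sham (log2 fold change -0.23 ± 0.039, adjusted p 8.47e-05). The last of these was lost with library totals alone (-0.071, adjusted p 0.141).

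Gapdh, the dehydrogenase at the entry to lower glycolysis and a common reference gene, could not be measured apart from its copies. Its counts gave 113, 619 and 593 CPM in sham, 228, 196 and 163 CPM in ligation and 102, 161 and 96.7 CPM with cells, so that sham replicate 1 lay below every ligation library while sham replicates 2 and 3 lay far above them. The mouse genome holds many processed copies of Gapdh, and 43 of them shared enough 31-base words with it to be followed. Gm13394, a processed pseudogene at chr2:28933610-28934609, matches the Gapdh transcript at all but 1 of 1000 aligned bases. Gm12033, at chr11:20335012-20336013, matches at all but 1 of 1002. The 61 bases around each difference are shown because reads elsewhere in these copies have the same letters as Gapdh; the differing base is in capitals, coordinates are GRCm38, and the transcripts are from GENCODE M21.
Gapdh around base 586 of its 1420-base transcript: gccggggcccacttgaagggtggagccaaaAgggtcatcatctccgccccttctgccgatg
Gm13394: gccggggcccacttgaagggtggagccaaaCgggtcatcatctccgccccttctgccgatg
Gapdh around base 744: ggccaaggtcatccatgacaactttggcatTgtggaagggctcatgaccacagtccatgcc
Gm12033: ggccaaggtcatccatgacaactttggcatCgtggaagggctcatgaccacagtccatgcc

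The counts at these nearly identical genes differed between libraries of the same group, and whether reads were exchanged between them was not tested. Gm13394 was at 1282, 419 and 394 CPM in sham, 777, 845 and 903 CPM in ligation and 745, 633 and 766 CPM with cells, highest in sham replicate 1, where Gapdh was low. Gm12033 was at 0, 433 and 0.317 CPM in sham, 0.213, 50.8 and 119 CPM in ligation and 250.5, 133 and 267 CPM with cells, with 0 counts in sham replicate 1 and 433 CPM in sham replicate 2. Gapdh and the 43 copies together gave 1458, 1536 and 1043 CPM in sham, 1044, 1164 and 1234 CPM in ligation and 1143, 979 and 1168 CPM with cells. Gapdh alone was lower after ligation (log2 fold change -1.18 ± 0.35, adjusted p 0.0102) and lower with cells than in sham (log2 fold change -1.88 ± 0.36, adjusted p 0.000243). With the copies added, these log2 fold changes were -0.23 (adjusted p 0.0635) and -0.30 (adjusted p 0.0168). The call after ligation was also lost without sham replicate 2 (-0.87, adjusted p 0.0676), without sham replicate 3 (-0.91, 0.0729), with DESeq2 (0.127) and with limma-voom (0.0958). In cells against ligation Gapdh gave log2 fold change -0.70 ± 0.36, adjusted p 0.255, and without sham replicate 1 the adjusted p was 0.00194. Summing libraries with a shared header stem also took it past the threshold (log2 fold change -0.75, adjusted p 0.0125), as did the fit of the 2 groups alone (adjusted p 0.00285). With no filter on low counts the adjusted p was 2.18e-30, from a fit that gave all genes 1 shared spread and so took no account of how much Gapdh varied between replicates. With the copies added it was 0.743.

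Eno1, the enolase of most tissues, had the same limit. Its own counts gave 183, 183 and 180.2 CPM in sham, 133, 140.2 and 131 CPM in ligation and 131, 123 and 124 CPM with cells, a fall after ligation (log2 fold change -0.44 ± 0.055, adjusted p 1.99e-06) that carried over to cells against sham (log2 fold change -0.53 ± 0.055, adjusted p 1.13e-07). Its copies Eno1b and Gm4735 went the other way: Eno1b was at 24.4, 28.7 and 30.2 CPM in sham, 43.3, 47.9 and 49.3 CPM in ligation and 45.4, 44.1 and 43.5 CPM with cells, and Gm4735 was at 18.0, 19.9 and 14.8 CPM in sham, 37.1, 44.1 and 45.4 CPM in ligation and 40.6, 35.6 and 42.8 CPM with cells. The sum of the 3 genes was 226, 232 and 225 CPM in sham, 213, 232 and 226 CPM in ligation and 217, 203 and 210.5 CPM with cells, with log2 fold changes of -0.023 after ligation (adjusted p 0.754) and -0.12 with cells against sham (adjusted p 0.0691). The lower count of Eno1 was therefore not seen in the sum. Copies that met the same limit were added for 8 other members. The calls of Gpi1, Tpi1, Pgk1, Pgam1, Pkm, Ldhb and Pdhb were the same with and without them, and Mpc1, given with the pyruvate carriers, gained calls with its copy added. Nothing was added for Aldoa, Ldha, Pfkfb2 and G6pdx, which share over 10% of their 31-base words with genes outside that limit.

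**Figure D2:**
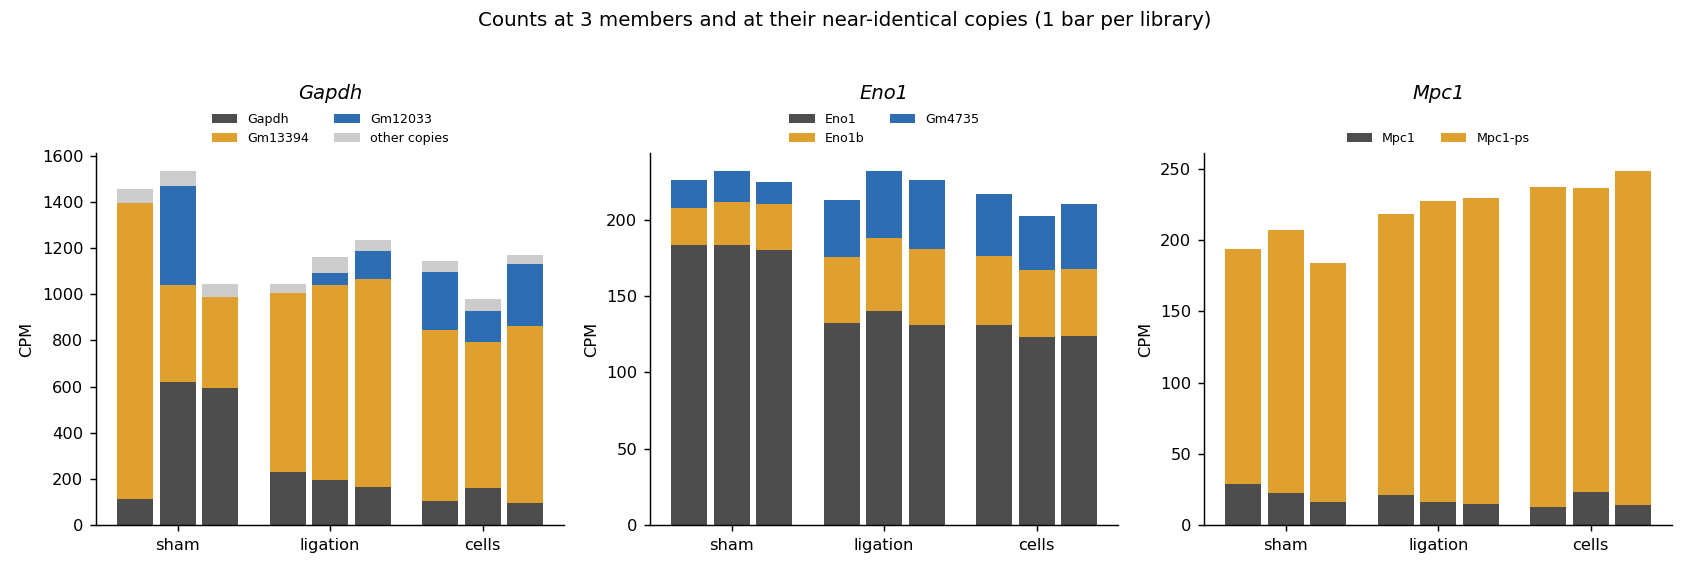
CPM of Gapdh, Eno1 and Mpc1 and of their near-identical copies, stacked, with 1 bar per library in the order of replicates 1 to 3 in each group. Gapdh is at 113 CPM and Gm13394 at 1282 CPM in sham replicate 1, Gapdh is at 619 CPM and Gm13394 at 419 CPM in sham replicate 2, and the stack of Mpc1 is mostly Mpc1-ps in all 9 libraries.

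Around lactate, the heart-type dehydrogenase Ldhb fell and the transporter gene Slc16a3 rose after ligation, and the transporter gene Slc16a1 rose with cells. Ldhb, the subunit typical of heart, was at 1642, 1700.0 and 1651 CPM in sham, 1104, 1070.3 and 1052 CPM in ligation and 1074, 1042 and 1059 CPM with cells. It fell after ligation (log2 fold change -0.63 ± 0.036, adjusted p 1.78e-11) and was lower with cells than in sham (log2 fold change -0.65 ± 0.036, adjusted p 8.71e-12), while cells against ligation gave -0.022 (adjusted p 0.768). Ldha, the subunit that favours making lactate, was at 862, 893 and 834 CPM in sham, 915, 927 and 910.3 CPM in ligation and 813, 803 and 795 CPM with cells. The ligation libraries were the highest and the cells libraries the lowest, with no overlap among the 3 groups. Ldha fell with cells against ligation (log2 fold change -0.19 ± 0.039, adjusted p 0.00227). After ligation it missed the threshold (log2 fold change 0.088 ± 0.039, adjusted p 0.0796), and passed at 0.0448 without sham replicate 2, at 0.0351 with limma-voom and, at 0.28 on the log2 scale, with library totals alone. Its lower level in cells against sham (log2 fold change -0.10 ± 0.039, adjusted p 0.0387) turned to 0.056 with library totals alone, and was lost without sham replicate 1 or 2, ligation replicate 2 or any 1 cells replicate (adjusted p-values 0.0540 to 0.152) and with no filter on low counts (0.0993).

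Slc16a1 encodes MCT1, a transporter that takes lactate and pyruvate in or out across most cell membranes, and was at 197, 191 and 192 CPM in sham, 173, 179 and 163 CPM in ligation and 233, 225 and 228 CPM with cells. All libraries with cells lay above all sham and ligation libraries. It rose with cells against ligation, 1.33-fold (log2 fold change 0.41 ± 0.052, adjusted p 1.42e-05), and was higher than in sham (log2 fold change 0.24 ± 0.052, adjusted p 0.000789). Its small fall after ligation (log2 fold change -0.17 ± 0.053, adjusted p 0.0140) turned to 0.016 with library totals alone, and was lost without sham replicate 1 (adjusted p 0.0517). Slc16a3 encodes MCT4, which exports lactate from strongly glycolytic cells, and was at 8.37, 10.05 and 8.41 CPM in sham, 16.6, 17.4 and 17.2 CPM in ligation and 13.8, 12.6 and 13.4 CPM with cells, about 47 to 138 counts per library. It had the largest rise after ligation of the 42 members tested, 1.91-fold (log2 fold change 0.93 ± 0.14, adjusted p 2.14e-05). With cells it lay between sham and ligation, above sham (log2 fold change 0.57 ± 0.14, adjusted p 0.00355) and below ligation short of the threshold (log2 fold change -0.37 ± 0.13, adjusted p 0.0816).

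At the entry of pyruvate into oxidation, both subunit genes of the first enzyme of the complex changed in opposite directions. Pdha1, which encodes its alpha subunit on the X chromosome, was at 254, 249 and 237 CPM in sham, 438, 412 and 410.3 CPM in ligation and 484, 504 and 462 CPM with cells. The 3 ranges rose from sham to ligation to cells without overlap. It rose after ligation, 1.70-fold (log2 fold change 0.77 ± 0.050, adjusted p 1.24e-10), and again with cells against ligation (log2 fold change 0.20 ± 0.049, adjusted p 0.00917), where leaving out ligation replicate 2 or cells replicate 2 gave adjusted p-values of 0.0586 and 0.0556. Pdhb, the beta subunit, fell after ligation (log2 fold change -0.46 ± 0.043, adjusted p 3.02e-08) and was lower than sham with cells (log2 fold change -0.37 ± 0.043, adjusted p 7.46e-07). Pdha1 is overlapped over 16.2% of its exon bases by Map3k15 on the other strand, and the strand setting of the counting is not given in the sources used here.

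The pyruvate dehydrogenase kinases, which switch the complex off, each had their own pattern. Pdk4, the kinase that is raised by fasting and fatty acids and is a known target of FOXO factors, was at 94.3, 97.2 and 89.2 CPM in sham, 106, 95.6 and 92.1 CPM in ligation and 170.2, 165 and 168 CPM with cells. Sham and ligation overlapped (log2 fold change 0.059, adjusted p 0.508), and every library with cells was above every other library. Its rise with cells was 1.72-fold against ligation (log2 fold change 0.78 ± 0.062, adjusted p 2.13e-08) and 1.79-fold against sham (log2 fold change 0.84 ± 0.062, adjusted p 8.79e-10), the largest called change of any member between cells and ligation. Pdk1, a target of hypoxia-inducible factors, was at 137, 147 and 134 CPM in sham, 253, 267 and 265 CPM in ligation and 280.4, 274 and 273 CPM with cells. It rose 1.88-fold after ligation (log2 fold change 0.91 ± 0.053, adjusted p 2.07e-11) and was 1.98-fold higher with cells than in sham (log2 fold change 0.99 ± 0.052, adjusted p 5.01e-12), while cells against ligation gave 0.075 (adjusted p 0.420). Pdk2, the most abundant of the 3 per kilobase in sham at 166 CPM per kb, was at 368, 402 and 351 CPM in sham, 283, 293 and 299 CPM in ligation and 280.0, 266 and 264 CPM with cells. After ligation it fell (log2 fold change -0.36 ± 0.053, adjusted p 1.76e-05) and was below sham with cells (log2 fold change -0.47 ± 0.053, adjusted p 4.96e-07). With library totals alone Pdk4 was also past the threshold after ligation (0.25, adjusted p 0.00313).

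Pdp1, the phosphatase that reverses the kinases, was at 28.6 to 42.9 CPM over the 9 libraries. It was past the threshold in no comparison. In cells against ligation it gave log2 fold change 0.29 ± 0.096, adjusted p 0.0617, with 0.0235 without ligation replicate 2 and 0.0440 with the replicate block. Mpc1 and Mpc2 form the mitochondrial pyruvate carrier. Mpc2 fell after ligation (log2 fold change -0.47 ± 0.049, adjusted p 1.53e-07) and was lower than sham with cells (log2 fold change -0.41 ± 0.048, adjusted p 9.76e-07). Mpc1 itself had only 28.5, 22.6 and 15.9 CPM in sham, 21.3, 15.8 and 14.5 CPM in ligation and 12.9, 23.4 and 13.8 CPM with cells, while its processed copy Mpc1-ps had 166, 185 and 168 CPM in sham, 197, 211 and 215 CPM in ligation and 224, 213 and 235 CPM with cells. Alone, Mpc1 gave -0.40 after ligation (adjusted p 0.156) and -0.40 with cells against sham (adjusted p 0.135). The sum with the copy gave 0.21 (adjusted p 0.00341) and 0.30 (adjusted p 7.59e-05), with the opposite sign, so no direction is given for Mpc1. Leaving out sham replicate 3 gave an adjusted p of 0.0384 after ligation and 0.0320 in cells against sham for Mpc1 alone, and leaving out cells replicate 2 gave 0.00607.

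Of the 6 glycogen genes among the members, the phosphorylase form named for brain fell most after ligation. Pygb was at 299.7, 309 and 282 CPM in sham, 162, 156 and 160.1 CPM in ligation and 173, 162 and 168 CPM with cells, with sham above all other libraries. It fell after ligation (log2 fold change -0.90 ± 0.053, adjusted p 2.73e-11) and was lower with cells than in sham (log2 fold change -0.82 ± 0.052, adjusted p 8.59e-11). Pygm, the muscle phosphorylase, was at 799, 856 and 786 CPM in sham, 728, 762 and 741 CPM in ligation and 726, 680.0 and 699.8 CPM with cells. Its fall after ligation was small (log2 fold change -0.13 ± 0.043, adjusted p 0.0225), turned to 0.058 with library totals alone, and was lost without sham replicate 2 (adjusted p 0.128) or ligation replicate 1 (0.0615). With cells it was lower than sham (log2 fold change -0.21 ± 0.043, adjusted p 0.000502; with library totals alone -0.054, adjusted p 0.341).

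On the side of glycogen synthesis, Gyg, which primes new glycogen chains, rose after ligation (log2 fold change 0.27 ± 0.055, adjusted p 0.000472) and was higher with cells than in sham (log2 fold change 0.41 ± 0.055, adjusted p 4.18e-06). Ugp2, which makes the activated glucose used for glycogen, was higher with cells than in sham (log2 fold change 0.24 ± 0.054, adjusted p 0.00111), with a range of 196 to 246 CPM over the 9 libraries. Gys1, the muscle glycogen synthase, was lower with cells than in sham (log2 fold change -0.25 ± 0.065, adjusted p 0.00431; with library totals alone -0.091, adjusted p 0.281). In cells against ligation Gys1 gave log2 fold change -0.20 ± 0.065, adjusted p 0.0580, with 0.0496 without sham replicate 3. Phka1, a subunit of the kinase that activates phosphorylase, had a range of 33.8 to 46.0 CPM over the 9 libraries and was past the threshold in no comparison. In cells against ligation 0 of the 6 glycogen genes were past the threshold by edgeR, DESeq2 or limma-voom, against 9.87% of all genes by edgeR. An unadjusted edgeR p under 0.05 was found for 4 of the 6, against 22.8% of all genes. When libraries were scaled by their totals instead of by TMM, Gys1 (adjusted p 0.0285) and Phka1 (adjusted p 0.0381) were lower with cells by edgeR. Gys1 was also past the threshold when edgeR was fitted to only the 2 groups compared (adjusted p 0.0459) and without sham replicate 3 (adjusted p 0.0496).

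Of the 3 pentose phosphate genes, Pgd, a later dehydrogenase of that pathway, rose after ligation (log2 fold change 0.50 ± 0.080, adjusted p 3.58e-05) and was higher with cells than in sham (log2 fold change 0.45 ± 0.079, adjusted p 0.000123). Tkt, the transketolase that links the pathway back to glycolysis, was called in cells against sham (log2 fold change 0.33 ± 0.11, adjusted p 0.0150), and not without sham replicate 1 or 3 or cells replicate 2 (adjusted p-values 0.0647 to 0.0935). In cells against ligation Tkt passed only with the replicate block (log2 fold change 0.27, adjusted p 0.0374). G6pdx, the entry enzyme, was at 9.68 to 16.2 CPM over the 9 libraries and was not called.

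Between ligation and cells, 11 members were past the threshold, and 24 of 42 had an unadjusted p under 0.05, against 22.8% of all genes. The 8 lower with cells were Gpi1, Pfkl, Pfkp, Pfkfb3, Aldoa, Pgk1, Pkm and Ldha, which run from the second step of glycolysis to lactate. In upper glycolysis 5 of 11 tested members and in lower glycolysis 2 of 7 were lower, against 5.69% of all genes. The sizes of these falls were between -0.15 for Pgk1 and -0.58 for Pfkfb3 on the log2 scale. Requiring an absolute log2 fold change of at least 0.5 as well left Pfkfb3 and Pdk4. Summed macrophage markers were 452 to 464 CPM with cells and 1113 to 1131 CPM in ligation. Also lower with cells were 3 of 4 neutrophil markers tested, 4 of 5 erythroid and 3 of 4 mesothelial markers, while 2 of 6 endothelial markers were higher. The part of these cell types in the falls was not tested. Cardiomyocyte sums overlapped between the groups, with 2 markers higher and 2 lower of 10.

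**Figure D3:**
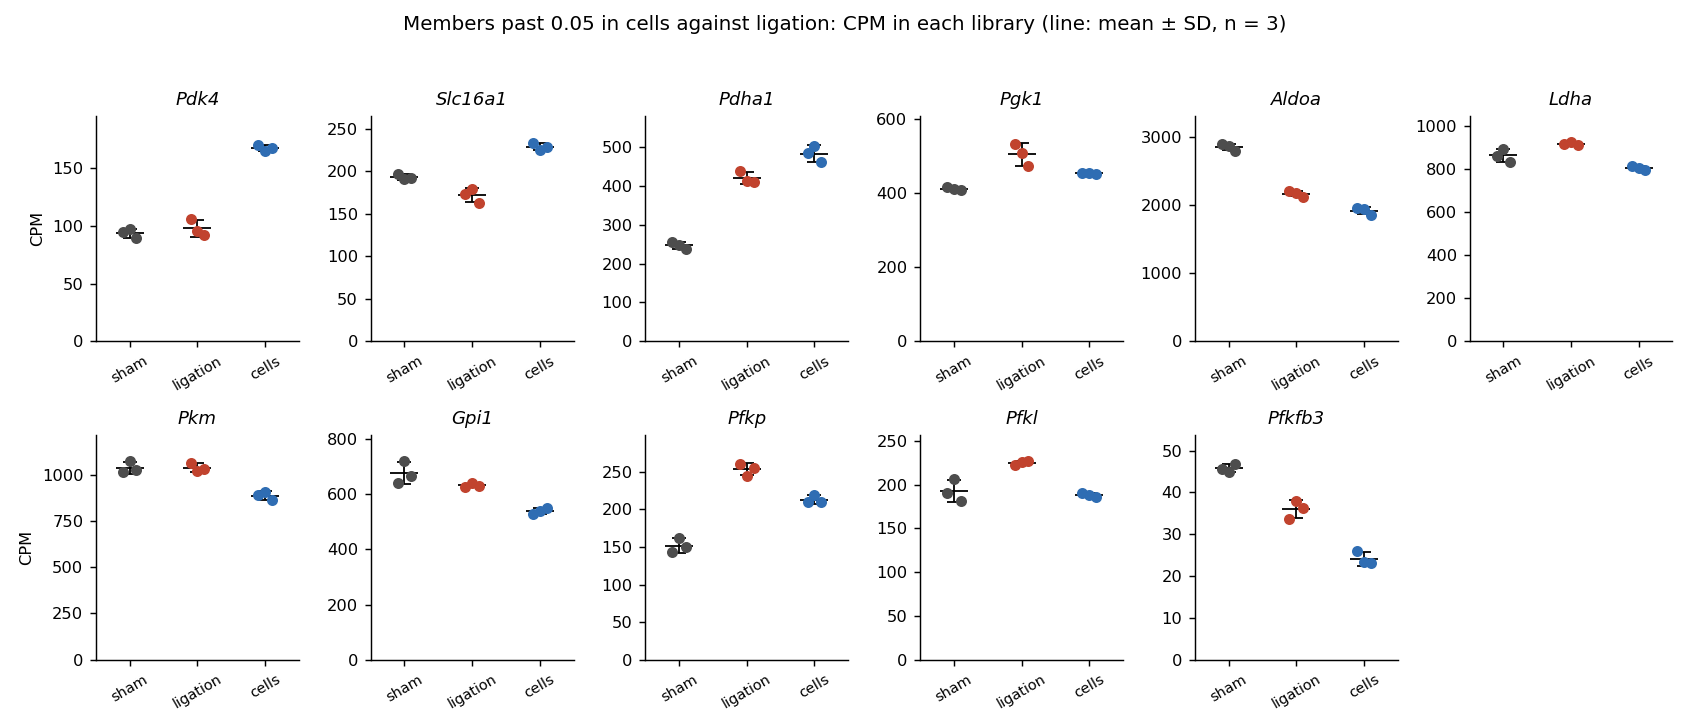
CPM in each library for the 11 members past the threshold in cells against ligation, with 1 point per library and a line with bars for the mean ± SD of 3 libraries. The vertical axes start at 0 and differ between genes; Pdk4 and Slc16a1 are highest with cells, Pfkfb3 and Aldoa descend from sham to cells, and Pfkp, Pfkl and Pgk1 with cells lie below ligation.

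Pfkl, Pfkp, Pgk1, Slc16a1, Pfkfb3, Aldoa and Pdha1 were past the threshold both after ligation and in cells against ligation. Both comparisons use the same ligation libraries, so errors in those libraries enter both, with opposite signs, and nothing is read from how many genes were called in both. For Pfkl the cells libraries, at 185 to 191 CPM, lay within the sham range of 181 to 206 CPM. For Pfkp they lay between both groups. For Pgk1 they also lay between both groups, and for Slc16a1 they lay above both.

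Ratios within a library do not depend on how libraries are scaled, and were taken for 13 pairs of genes that serve the same step. The smallest p that an exact two-sided permutation test allows with 3 against 3 libraries is 0.1, which is 0.122 after Benjamini-Hochberg adjustment over the 39 pair comparisons, so none can pass 0.05. Other pairs of genes were not compared in this way, so the differences below describe these pairs only. Aldoa to Aldoc rests on at most 10 counts of Aldoc, so that its ratio depends on the 0.5 added to each count, and it is not read further. After ligation, the log2 ratio of Pgam2 to Pgam1 went from 3.97 ± 0.056 (SD, n = 3) in sham to 2.78 ± 0.062, and that of Slc16a1 to Slc16a3 from 4.43 ± 0.17 to 3.32 ± 0.078. The ratio of Slc2a4 to Slc2a1 went from 4.04 ± 0.063 to 3.10 ± 0.075, that of Pfkm to Pfkp from 2.26 ± 0.10 to 1.48 ± 0.10, and that of Ldhb to Ldha from 0.95 ± 0.033 to 0.23 ± 0.036. In each of these pairs the gene named first is the muscle or heart form, or the one of oxidative muscle, and its ratio was lower in every ligation library than in every sham library. Pygm to Pygb went the other way, from 1.45 ± 0.034 to 2.22 ± 0.060. Of all 13 pairs, Aldoa to Aldoc included, 11 had a lower mean ratio after ligation. Besides Pygm to Pygb, the ratio of Pdk4 to Pdk2 was higher (difference 0.42).

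With cells, some ratios lay nearer to sham and others did not. Slc16a1 to Slc16a3 was at 4.10 ± 0.041 with cells, between ligation and sham. Slc2a4 to Slc2a1 was at 3.52 ± 0.25, Pfkm to Pfkp at 1.73 ± 0.040 and Ldhb to Ldha at 0.40 ± 0.019, each between both other groups. Pgam2 to Pgam1 was at 2.80 ± 0.067, within the spread of ligation (exact permutation p 0.7). Pfkm to Pfkl was at 1.90 ± 0.015, against 1.65 ± 0.048 in ligation and 1.92 ± 0.088 in sham, and overlapped sham (exact permutation p 0.9). Eno3 to Eno1 carries the limit of the Eno1 copies.

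Expressed per kilobase as shares of a family, these ratios show what each form contributes. Slc2a4 made up 94.8% to 95.1% of the 3 glucose transporters in sham, 90.6% to 91.5% in ligation and 92.2% to 94.3% with cells. Ldhb made up 72.0% to 72.8% of lactate dehydrogenase transcripts in sham, 61.0% to 62.0% in ligation and 63.7% to 64.3% with cells. Pgam2 made up 97.0% to 97.2% of the mutases in sham, 93.3% to 93.7% in ligation and 93.3% to 93.9% with cells. Pfkm made up 72.8% to 75.0% of the phosphofructokinases in sham, 65.7% to 68.0% in ligation and 70.3% to 70.9% with cells, and Pfkp went from 10.1% to 11.3% in sham to 15.8% to 17.6% in ligation and 14.6% to 15.2% with cells. Hk1 made up 61.9% to 67.2% of the 2 hexokinases in sham, 69.0% to 71.8% in ligation and 66.4% to 67.5% with cells, where it overlapped sham and lay below ligation.

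In percentage points of share, the kinase family shifted most among these families. Pdk2 made up 75.3% to 76.1% of the 3 pyruvate dehydrogenase kinases in sham, 61.4% to 63.2% in ligation and 53.9% to 54.8% with cells. Pdk1 went from 12.0% to 12.4% in sham to 23.8% to 24.6% in ligation and stayed at 23.8% to 24.1% with cells. Pdk4 was at 11.9% to 12.5% in sham, 12.6% to 14.8% in ligation and 21.5% to 22.0% with cells. Between sham and ligation the shares of none of the 3 overlapped, with Pdk4 only just apart, and between ligation and cells those of Pdk4 and Pdk2 did not overlap. Pdk3, a further kinase gene that is no member, was at 3.38, 3.29 and 3.49 CPM in sham, 5.97, 7.81 and 7.13 CPM in ligation and 7.38, 4.86 and 8.50 CPM with cells.

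**Figure D4:**
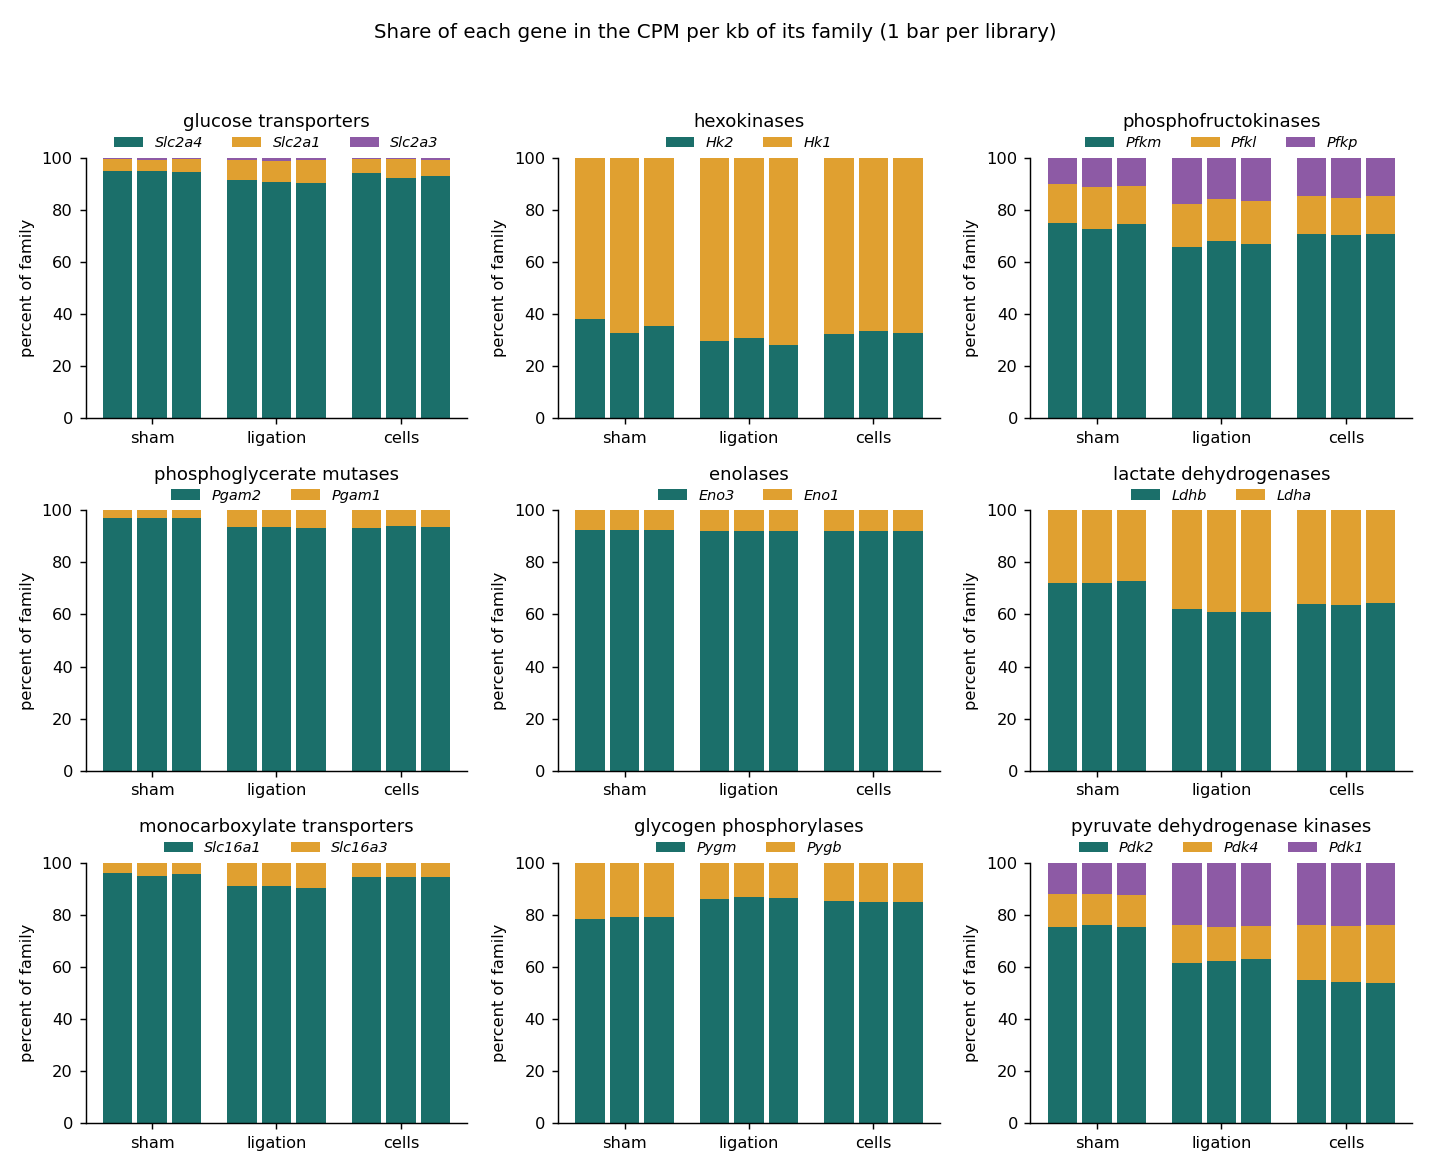
Share of each gene in the summed CPM per kilobase of its family, in percent, with 1 stacked bar per library in the order of replicates 1 to 3 in sham, ligation and cells. The part of Ldha, Pfkp and Pdk1 is larger in all ligation libraries than in all sham libraries, that of Pygb is smaller, and Pdk4 is largest with cells.

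The promoters of the largest rises are shown because these genes moved in different comparisons: Pdk4 and Slc16a1 rose most with cells against ligation, and Slc16a3 and Pdk1 rose most after ligation. Sequences are from RefSeq (GRCm38.p6), on the strand of the gene, and begin 250 bases before the RefSeq start. They are cut after the first 30 bases of exon annotated in GENCODE M21, which can begin ahead of the RefSeq start. For Pdk4 the GENCODE gene begins at base 5496309, so the printed 249 bases end before its RefSeq start. Capitals mark ACGTG and GCGTG, the core letters of the site that hypoxia-inducible factors bind, and CACGTG, the E-box letters, on either strand. CACGTG always contains ACGTG.
Pdk4, chr6:5496280-5496528, minus strand: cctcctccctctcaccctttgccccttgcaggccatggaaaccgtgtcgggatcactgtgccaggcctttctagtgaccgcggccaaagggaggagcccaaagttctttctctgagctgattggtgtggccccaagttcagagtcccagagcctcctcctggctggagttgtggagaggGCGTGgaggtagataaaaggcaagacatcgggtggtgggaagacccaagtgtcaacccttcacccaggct
Slc16a1, chr3:104638414-104638697, plus strand: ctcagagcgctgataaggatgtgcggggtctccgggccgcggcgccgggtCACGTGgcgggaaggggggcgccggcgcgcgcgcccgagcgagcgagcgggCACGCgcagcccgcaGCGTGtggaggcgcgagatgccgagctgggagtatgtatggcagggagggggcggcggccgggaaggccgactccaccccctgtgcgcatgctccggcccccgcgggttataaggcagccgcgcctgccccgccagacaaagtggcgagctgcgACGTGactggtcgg
Slc16a3, chr11:120948817-120949082, plus strand: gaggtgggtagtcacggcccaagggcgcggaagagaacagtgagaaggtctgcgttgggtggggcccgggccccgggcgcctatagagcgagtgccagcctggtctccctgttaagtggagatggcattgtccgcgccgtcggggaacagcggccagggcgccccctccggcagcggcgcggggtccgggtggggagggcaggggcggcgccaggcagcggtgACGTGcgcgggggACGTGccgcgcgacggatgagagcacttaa
Pdk1, chr2:71872974-71873253, plus strand: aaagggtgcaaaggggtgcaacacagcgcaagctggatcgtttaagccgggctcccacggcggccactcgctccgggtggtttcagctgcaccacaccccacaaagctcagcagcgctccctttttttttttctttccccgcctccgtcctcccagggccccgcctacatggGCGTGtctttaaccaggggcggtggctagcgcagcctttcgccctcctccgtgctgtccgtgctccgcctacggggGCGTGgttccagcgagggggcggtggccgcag

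Counting the RefSeq start base as 0, Pdk1 has GCGTG at -78 and -2, and Slc16a3 has ACGTG at -27 and -14. In Slc16a1 there is a CACGTG at -200, a GCGTG at -149 and at -134, and an ACGTG at 20. Pdk4 has a GCGTG at -71 and no ACGTG in this window. The forkhead core letters TGTTTAC, which FOXO factors can bind, were in none of the 4 windows, the unprinted last bases included. RefSeq windows were present for 40 of the 43 members. Of these 40, 22 (55.0%) held ACGTG in at least 1 window of 250 bases before to 50 after a start, against 28.8% of 10262 tested genes with a window. GCGTG was in 30 (75.0%) against 55.2%, CACGTG in 7 (17.5%) against 11.6%, and TGTTTAC in 1 (2.5%) against 3.07%. The members had 62 windows for 40 genes and the tested genes 13138 for 10262, so members had more windows in which a match could fall. Counted per window, ACGTG was in 41.9% of the members' windows against 24.7% of those of tested genes, GCGTG in 58.1% against 49.3%, CACGTG in 11.3% against 9.70%, and TGTTTAC in 1.61% against 2.54%. Windows of 1 gene can overlap. The median GC content was close, 60.8% in the members' windows and 60.7% over tested genes. A match in letters is a description of the window and shows no binding.

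The other genes of these pathways, a list of 66 symbols that are no members, gave 56 tested genes. After ligation 31 of them (55.4%, against 38.2% of all genes) differed from sham, 22 higher and 9 lower. With cells against ligation 8 (14.3%) differed, 5 higher and 3 lower, a share near the 9.87% of all genes. With cells against sham 31 (55.4%, against 40.9% of all genes) differed, 20 higher and 11 lower. The largest called changes after ligation were in Slc2a6, a lysosomal hexose transporter of phagocytes, and Eno2, the enolase of neurons. Slc2a6 was at 0.178, 0.494 and 0.476 CPM in sham, 2.13, 1.74 and 3.0 CPM in ligation and 0.426, 1.11 and 0.432 CPM with cells, near the detectable level in sham. Eno2 was at 3.38, 3.95 and 6.19 CPM in sham, 19.0, 17.9 and 20.0 CPM in ligation and 13.8, 10.5 and 13.5 CPM with cells, with all ligation libraries above all others (log2 fold change 2.06, adjusted p 3.17e-08).

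With cells against ligation, the largest called changes in that list were in Hk3, the hexokinase of white blood cells, and again Slc2a6. Hk3 was at 4.81, 5.27 and 3.17 CPM in sham, 7.67, 4.49 and 5.0 CPM in ligation and 2.84, 0.832 and 1.01 CPM with cells, and fell by 1.83 on the log2 scale (adjusted p 0.00327), while Slc2a6 fell by 1.79 (adjusted p 0.0186). Both fell beside the macrophage markers given above, whose part was not tested. With cells against sham, Stbd1, which tethers glycogen to membranes, changed most. Stbd1 was at 10.3, 11.5 and 11.6 CPM in sham, 2.98, 3.47 and 4.25 CPM in ligation and 3.12, 4.44 and 2.16 CPM with cells, with all sham libraries above all others. Its level with cells was below that in sham (log2 fold change -1.77, adjusted p 5.40e-06).

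Some counts carry a limit from the annotation. For 7 members over 10% of exon bases are overlapped by another gene: Gpi1, Pfkm, Pfkfb2, Pkm, Mpc1, Pdha1 and G6pdx. Reads there can be left out as ambiguous or, without strand, given to the wrong gene, and 8.09% to 8.72% of reads were recorded as ambiguous in these libraries. For 14 members over 10% of 31-base words occur in another gene, Pgk1 the most at 54.7%, so that reads of such stretches may be placed at either gene.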

How the data were processed

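The authors deposited raw read counts per gene, 1 file for each of the 9 libraries, with no normalization. Per the labels' protocols, TRIzol was used for total RNA and a NEBNext Ultra kit for the libraries. The submitters' processing notes name the build mm10. The aligner, the counter, the annotation release and the strand setting are not given in the sources used here. Each file ends in 5 lines that record reads not counted to a gene, and these were left out of library sizes. Reads outside genes were 4.14% to 4.91% and ambiguous reads 8.09% to 8.72%.

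The titles of the samples gave groups and replicate numbers. In the source field, cells replicates 2 and 3 carry other FOXO names, while title and treatment name FOXO3, and the latter were followed. Symbols came from GENCODE M21 (53274 of 53465 IDs matched). The symbol Aldoa has 2 IDs, and ENSMUSG00000030695 was used.

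Counts were fitted in R 4.3.3 with edgeR 4.0.16 (filterByExpr, TMM factors, quasi-likelihood F test, two-sided) as a mean per group over all 9 libraries, with 6 residual degrees of freedom. P-values were adjusted by Benjamini-Hochberg over 13825 genes and called under 0.05. Standard errors are the log2 fold change divided by the square root of the F statistic. Isoform ratios used counts plus 0.5 and an exact two-sided permutation test (scipy 1.17.1). Levels per kilobase used the APPRIS principal transcript. Copies were genes with at least 100 31-base words in common with a member that make up at least 50% of the copy's words. Alternatives were library totals alone, RLE size factors, TMM without mitochondrially encoded genes, other filters, DESeq2 1.42.0, limma-voom 3.58.1, 2-group fits, a replicate block and leaving out each library. Summing libraries with a shared header stem and adding copies were chosen after seeing the data.

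Replicate numbers were not used to pair the samples, since the labels state no shared animal or day. Deviations of same-numbered libraries correlated at -0.156 to 0.164 over 7839 genes, which with 3 libraries per group cannot exclude one. Values are given in every library for members past the threshold in cells against ligation, for those of the isoform pairs, and for the 6 largest called changes after ligation, and for other members as fold changes or ranges. Of the other pathway genes, the 2 largest called changes per comparison are named, except 1 that is not reported here. Pdk3, Eno1b and the other copies were named after their values were seen. The members, lists and pairs were chosen with earlier results of these data known. Figures were drawn with matplotlib 3.10.9.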

Additional observations from a re-analysis of the deposited data

How the results depend on the processing

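The counts of 27, 11 and 33 members past the threshold (ligation against sham, cells against ligation, cells against sham) stayed within 1.5 times under every scaling, filter, test and left-out library tried, except that also requiring an absolute log2 fold change of at least 0.5 gave 13, 2 and 15, which follows from the added rule. Leaving out 1 library gave 25 to 27, 10 to 12 and 29 to 33, and 19 to 21 ratio differences of at least 0.5 over all 39. With all libraries there were 20, or 17 of 36 without Aldoa to Aldoc. In all fits with 1 library left out 23 of 27, 9 of 11 and 28 of 33 members kept their call. With the replicate block the counts were 27, 13 and 32: Pdp1 and Tkt were gained in cells against ligation (adjusted p 0.0440 and 0.0374) and Pfkfb1 was lost in cells against sham (0.0593). DESeq2 gave 26, 11 and 32. With no filter on low counts edgeR estimated infinite prior degrees of freedom (13.8 with the filter), so that all genes had 1 shared spread and single genes' p-values from that fit do not reflect their own replicates.

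With library totals alone, ligation against sham gave Gpi1 0.091, Pfkm 0.15 (now past the threshold, adjusted p 0.00670), Pfkfb1 0.011, Pkm 0.19 (past it, 0.000473), Slc16a1 0.016, Pdp1 0.085, Pygm 0.058 and Gys1 0.14, and cells against sham gave Pfkm 0.11 (past it, 0.0371), Pfkl 0.13, Ldha 0.056 and Phka1 0.051, a scaling that moves the median gene by 0.19 and 0.16. Pkm after ligation was 0.0064 with no filter and 0.0010 with a mean of at least 1 CPM. Adding copies turned Mpc1 to 0.21, 0.097 and 0.30 in the 3 comparisons, and summing header stems turned Pfkm to 0.0083 in cells against ligation. Leaving out 1 library, with the cause not tested, gave Gys1 a range that reached 0 after ligation (-0.091 to 0). After ligation it gave ranges across 0 for Slc2a3 (-0.060 to 0.33), Pkm (-0.019 to 0.024) and Tkt (-0.014 to 0.18). In cells against ligation it did so for Pfkm (-0.0423 to 0.0142), Mpc1 (-0.33 to 0.15) and the log2 ratios of Pgam2 to Pgam1 (-0.023 to 0.050) and Eno3 to Eno1 (-0.0001 to 0.024). In cells against sham it did so for Pfkl (-0.0744 to 0.0172), G6pdx (-0.14 to 0.17) and the ratio of Pfkm to Pfkl (-0.0674 to 0.0152). Depth limits Aldoc, Slc2a3 and Pfkfb1, which had at most 47 counts in any library.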
